A study of Mus musculus with 6 samples.

Results

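Floor plate progenitor markers were followed through sorted cells of the mouse ventral midbrain. The set comprised 6 genes, Corin, Msx1, Msx2, Ferd3l, Spon1 and Slc10a4, which were listed by symbol. Every probe set whose platform annotation gave exactly 1 of these symbols was taken, which yielded 10 of the 45037 probe sets on the array other than controls and covered 5 of the 6 genes. The probe set listed for Slc10a4 also names another gene, so no signal was attributed to Slc10a4. Spon1 had 4 probe sets, Msx1 and Msx2 had 2 each, and Corin and Ferd3l had 1 each.

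The arrays measured messenger RNA in cells isolated by fluorescence-activated sorting at embryonic day 12.5, with 3 arrays in each of 2 groups that the design text calls biological replicates. The first group, called positive here, held GFP-positive cells of Ngn2-GFP mice (strain CD1/129), labelled as dopaminergic progenitors of the midbrain. The second, called negative, held GFP-negative cells of Lmx1a-GFP mice (strain C57BL/6), labelled as a progenitor population that is not dopaminergic. All cells came from ventral mesencephalon, and mouse line, strain and sort gate changed together with the group, so their effects cannot be told apart.

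The floor plate is the strip of cells along the ventral midline of the neural tube. It secretes Sonic hedgehog and axon guidance cues, and in the midbrain, unlike further caudally, its cells also give rise to neurons, among them the dopaminergic ones. Lmx1a acts in these midline progenitors, and Msx1 lies downstream of it. Corin, a membrane serine protease, is displayed on floor plate cells and has been used to sort them. Ferd3l, also known as Nato3 or N-twist, is a basic helix-loop-helix (bHLH) transcription factor of the floor plate, and Spon1 (F-spondin) is a matrix protein that floor plate cells secrete.

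Values are signals of the MAS5 algorithm, which were scaled to the same trimmed mean of 100 on every array. The sources give no detection call, so a signal was called above background when it was higher than 40% of the probe sets of its array (the 40th percentile), a level of 10.2 to 15.8 on the 6 arrays. A probe set below that level on all 3 arrays of a group is called dim there. Probe sets above it on at least 3 of the 6 arrays were tested with limma, and each gene was represented by its brightest tested probe set. The genes behind the gates were read first. Lmx1a read 146, 170 and 78.7 on the positive arrays, against 3.74, 9.75 and 1.81 on the negative arrays, where it was dim. Neurog2, the gene that Ngn2 stands for, read 706, 585 and 500 on the positive arrays, against 338, 388 and 334 on the negative arrays. All 6 values were above background and the groups did not overlap, but the log2 difference, positive minus negative, of 0.75 (SE 0.21) did not pass, with an adjusted p of 0.155 by limma. Positive replicates 1 and 2 stood apart from the other 4 arrays in hybridization spike-ins, whose average was 2293 and 2352 there. It was 5018 for positive replicate 3, and the negative arrays had 4254 to 6560. These 2 sides are called spike-in batches. A fit that blocks on them rests on positive replicate 3 for the positive group.

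Spon1 was the only member with a probe set above background on all 6 arrays, and it read lower in the positive cells without passing the test. Corin was just above background in positive cells and dim in negative cells. Ferd3l stayed at the background level in both groups, and Msx1 and Msx2 had too few arrays above it to be tested. Of the 10 probe sets, 2 were above the 40th percentile on all 6 arrays, both of Spon1, 3 were above it on 3 to 5 arrays, 4 on 1 or 2 arrays and 1 on no array. Raising the level to the 60th percentile left the same 2 Spon1 probe sets above it on all 6 arrays, and no other member probe set exceeded it on any array. In sorted bulk samples, fewer cells of a type and less RNA per cell cannot be told apart.

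**Figure D1:**
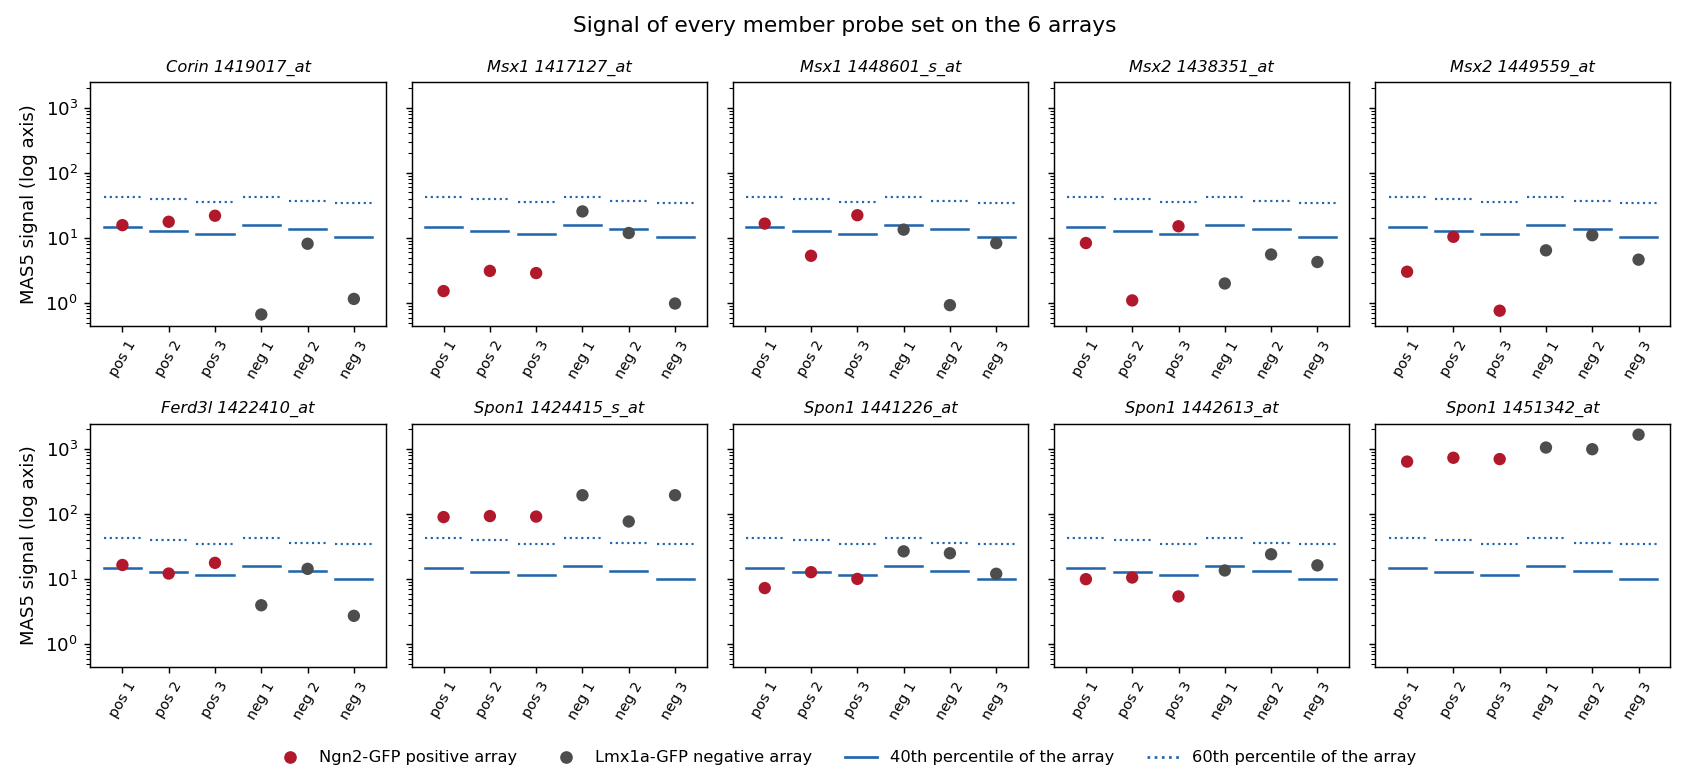
MAS5 signal (log axis) of the 10 member probe sets, 1 panel each, on the 3 Ngn2-GFP positive arrays (red) and the 3 Lmx1a-GFP negative arrays (grey), with the 40th (solid) and 60th (dotted) percentile of each array as blue lines. Spon1 probe sets 1451342_at and 1424415_s_at lie above both lines on all 6 arrays, and the Corin points cross the solid line on the 3 positive arrays alone.

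The membrane protease comes first. Corin (probe set 1419017_at) read 15.7, 17.7 and 21.9 on the positive arrays, against 0.67, 8.14 and 1.16 on the negative arrays. Every positive value lay above every negative value, but the positive values themselves sat at only percentiles 41.4, 45.9 and 52.2 of their arrays. The geometric mean was 18.3 in positive cells, with a 1.39-fold span between its arrays. In negative cells it was 2.12, with signals under 1 set to 1, and the span was 8.14-fold. Because all 3 negative arrays were dim, the difference is a bound of at least 1.41-fold. The fitted log2 difference, positive minus negative, was 3.11 (SE 1.06, n = 3 arrays per group), with a 95% interval of 0.80 to 5.41 and an adjusted p of 0.288 by limma, so Corin did not pass the threshold of 0.05. Its probe set entered the test through the positive arrays alone. On the 4 arrays of the higher spike-in side the bound was at least 1.69-fold, from 1 positive array, and with log2 of the signal plus 32 the fitted difference was 0.52.

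No gene tied to Corin by function passed the test. Corin is best known for cutting the precursor of atrial natriuretic peptide in the heart. Nppa, which encodes that precursor, read 7.46, 26.5 and 29.7 in positive cells and 14.2, 20.7 and 23.4 in negative cells, values that overlap. Of 15 genes with a probe set in a list of natriuretic peptides, their receptors and related serine proteases, 8 were tested and none passed the limma test in either direction, adjusted or at an unadjusted p under 0.05. Their median log2 difference was -0.22, against 0.025 for all tested genes. The brightest were the natriuretic peptide receptor Npr2 (-0.24, SE 0.34) and the proprotein convertase Furin (-0.23, SE 0.32).

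Ferd3l is the bHLH factor of the set. Its probe set (1422410_at) read 16.5, 12.2 and 17.8 in positive cells, against 3.98, 14.4 and 2.74 in negative cells. The groups overlapped, because negative replicate 2 exceeded positive replicate 2, and the probe set was above background on 2 positive arrays and 1 negative array. The log2 difference was 1.50 (SE 0.85, 95% interval -0.33 to 3.34), with an adjusted p of 0.541 by limma. With log2 of the signal plus 32 it was 0.29.

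The promoters of Corin and Ferd3l are shown because these are the members with the higher mean in positive cells among those tested. Each sequence is the 250 bases before the annotated start, taken from RefSeq on GRCm38.p6, for Corin at chr5:72504541-72504790 on the minus strand and for Ferd3l at chr12:33928175-33928424 on the plus strand. Capitals mark an E box (CANNTG, the letters that bHLH factors bind) in Corin, which begins 166 bases before the start, and a TATAAA in Ferd3l, which begins 50 bases before it.
Corin: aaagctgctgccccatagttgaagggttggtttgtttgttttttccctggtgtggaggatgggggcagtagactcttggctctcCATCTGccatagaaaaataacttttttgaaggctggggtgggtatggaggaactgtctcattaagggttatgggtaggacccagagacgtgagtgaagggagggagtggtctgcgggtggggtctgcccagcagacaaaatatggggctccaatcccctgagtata
Ferd3l: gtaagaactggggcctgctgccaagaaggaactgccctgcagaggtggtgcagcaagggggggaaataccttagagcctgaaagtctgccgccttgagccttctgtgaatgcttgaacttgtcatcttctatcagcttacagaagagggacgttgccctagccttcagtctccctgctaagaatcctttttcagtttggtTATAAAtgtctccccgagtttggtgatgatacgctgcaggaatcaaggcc

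Both strands were searched, and the 4 motifs were chosen after the signals were seen. Of 32851 promoter windows of this length, 66.2% held an E box and 12.4% a TATAAA sequence. The windows of Msx1, Msx2 and Slc10a4 also held 1 E box each. The core that homeodomain proteins such as Lmx1a and Msx1 bind, TAATTA, was present in 4.84% of windows. A forkhead core, TGTTTAC, was present in 3.17% of them. Neither core was in the window of Corin, Ferd3l, Msx1 or Slc10a4. The Msx2 window held a TAATTA, which begins 187 bases before the start. RefSeq windows were found for 5 of the 6 members, and Spon1 had none. These matches describe letters in the windows and not binding.

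Msx1 and Msx2 are homeobox repressors that respond to bone morphogenetic protein (BMP) signals and mark dorsal as well as ventral midline cells. For each gene, the 2 probe sets differed in which group had the higher mean. Msx1 probe set 1448601_s_at read 16.6, 5.32 and 22.3 in positive cells, against 13.4, 0.931 and 8.31 in negative cells, and was above background on positive replicates 1 and 3 alone. Msx1 probe set 1417127_at read 1.53, 3.12 and 2.89 in positive cells, against 25.5, 11.9 and 0.986 in negative cells, and was above background on negative replicate 1 alone. The groups overlapped for both probe sets.

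Msx2 was no clearer. Its probe set 1438351_at read 8.35, 1.1 and 15.1 in positive cells, against 2, 5.57 and 4.27 in negative cells, so that positive replicate 3 was the only array above background. Probe set 1449559_at read 3.03, 10.4 and 0.765 in positive cells, against 6.45, 11 and 4.64 in negative cells, and was above background on no array. With the filter for dim probe sets dropped, the 4 Msx probe sets had log2 differences of -1.48 to 1.38, with adjusted p of 0.761 to 0.915 by limma. At these signals a difference between the groups was not detectable.

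BMP pathway genes were set beside the Msx genes. Of 23 with a probe set, 17 were tested and none passed the limma test in either direction. An unadjusted p under 0.05 was reached by 4 of the 17, against 10.8% of all tested genes. Of the 4, Bmpr1a, Id3 and Bambi were lower and Bmp7 was higher in positive cells. The median log2 difference of the 17 was -0.13, with 6 values above 0 and 11 below. The brightest were Id4, a BMP-responsive inhibitor of bHLH factors (-0.64, SE 0.33), and the receptor Bmpr2 (0.00, SE 0.22). The ligand genes Bmp2 and Bmp4, the antagonist Nog and the inhibitory Smad6 were dim on all 6 arrays.

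Spon1 was the bright member. Its brightest probe set (1451342_at) read 636, 728 and 695 in positive cells, against 1045, 985 and 1648 in negative cells. Every positive array lay below every negative array, and all 6 values were between percentiles 94.9 and 98.2 of their arrays. Geometric means were 685 in positive and 1193 in negative cells, with a span between arrays of 1.15-fold in the positive and 1.67-fold in the negative group. The log2 difference was -0.80 (SE 0.23, n = 3 arrays per group), with a 95% interval of -1.29 to -0.30. The level in negative cells was thus 1.74-fold that in positive cells. With an unadjusted p of 0.00405 and an adjusted p of 0.182 by limma, the difference did not pass the threshold.

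The other Spon1 probe sets had the same sign. Probe set 1424415_s_at, annotated from the same transcript record as the brightest, read 89.6, 92.8 and 91.2 in positive cells, against 194, 76.7 and 194 in negative cells. The 3 positive values were nearly equal, and negative replicate 2 fell below them. Probe set 1441226_at read 7.3, 12.8 and 10.1 in positive cells, against 26.7, 25 and 12.1 in negative cells, with an overlap between positive replicate 2 and negative replicate 3. Probe set 1442613_at read 10, 10.6 and 5.44 in positive cells, against 13.6, 24.1 and 16.3 in negative cells. It was dim in positive cells and above background on 2 negative arrays, and its groups did not overlap. The 3 tested probe sets of Spon1 had log2 differences of -0.64 (SE 0.34), -1.03 (SE 0.65) and -0.80 (SE 0.23) when each probe set was fitted, with adjusted p of 0.554, 0.627 and 0.218 by limma. They read 1 gene and are not replicates of each other.

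The Spon1 difference kept its sign whichever array was left out, but its size varied with the negative arrays. Leaving out 1 array at a time gave log2 differences of -0.94 to -0.57 for Spon1, with adjusted p of 0.0896 to 0.560 by limma. The largest difference came without negative replicate 2 and the smallest without negative replicate 3. Blocking on the spike-in batch gave -0.78 (SE 0.30, adjusted p = 0.614 by limma), resting on 1 positive array. Several markers of blood cells, macrophages and GABAergic neurons, and 2 of 7 of radial glia, were lower in the positive cells. Over all tested genes, 0.639% were lower. The signals of 6 erythroid markers with a probe set summed to between 39 and 45 in positive cells and between 812 and 2312 in negative cells, with 3 of 3 tested members (Hbb-bh1, Hba-x and Alas2) lower in positive cells and Hba-a1 and Klf1 dim on all arrays. The 8 macrophage markers summed to between 36 and 49 in positive cells and between 372 and 780 in negative cells, with 4 of 5 tested members (Csf1r, Aif1, Tyrobp and C1qb) lower. Hbb-bh1, Hba-x, Csf1r, Aif1 and Tyrobp were dim in positive cells and entered the test through the negative arrays alone. The filter thus favoured lower values among the tested markers. The erythroid and macrophage sums also cover untested markers but consist largely of these same ones. On negative replicate 1, Hbb-bh1 read 1163, Hba-x 1000 and Csf1r 330. These 2 sums are therefore not separate support. The 7 GABAergic markers summed to between 2442 and 2666 in positive cells and between 5739 and 6023 in negative cells, with 5 of 7 (Tal2, Gata3, Gata2, Gad1 and Tal1) lower. The 7 radial glia markers summed to between 4237 and 6630 in positive cells and between 7920 and 9515 in negative cells, with 2 of 7 (Pax6 and Fabp7) lower. Blocking on the spike-in batch, 2 erythroid, 2 macrophage, 3 GABAergic and 1 radial glia markers were lower. Leaving out any negative array left 0 erythroid and 1 macrophage markers lower. The radial glia count was 1 without each array other than positive replicate 3, and 3 without that array. Without a filter 2 erythroid, 2 macrophage, 1 GABAergic and 0 radial glia markers were lower. The part of these cells in the Spon1 signal was not tested. Mesenchymal and neural crest markers were low in both groups, with sums over 10 genes of between 72 and 108 in positive cells and between 69 and 129 in negative cells. Here Foxd3, Twist1, Foxc1, Lum and Dcn were dim on all arrays, and none of 4 tested genes passed at an adjusted or unadjusted p of 0.05 by limma, with Sox10 at -0.20 (SE 0.58) and Col1a1 at -1.40 (SE 0.83).

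**Figure D2:**
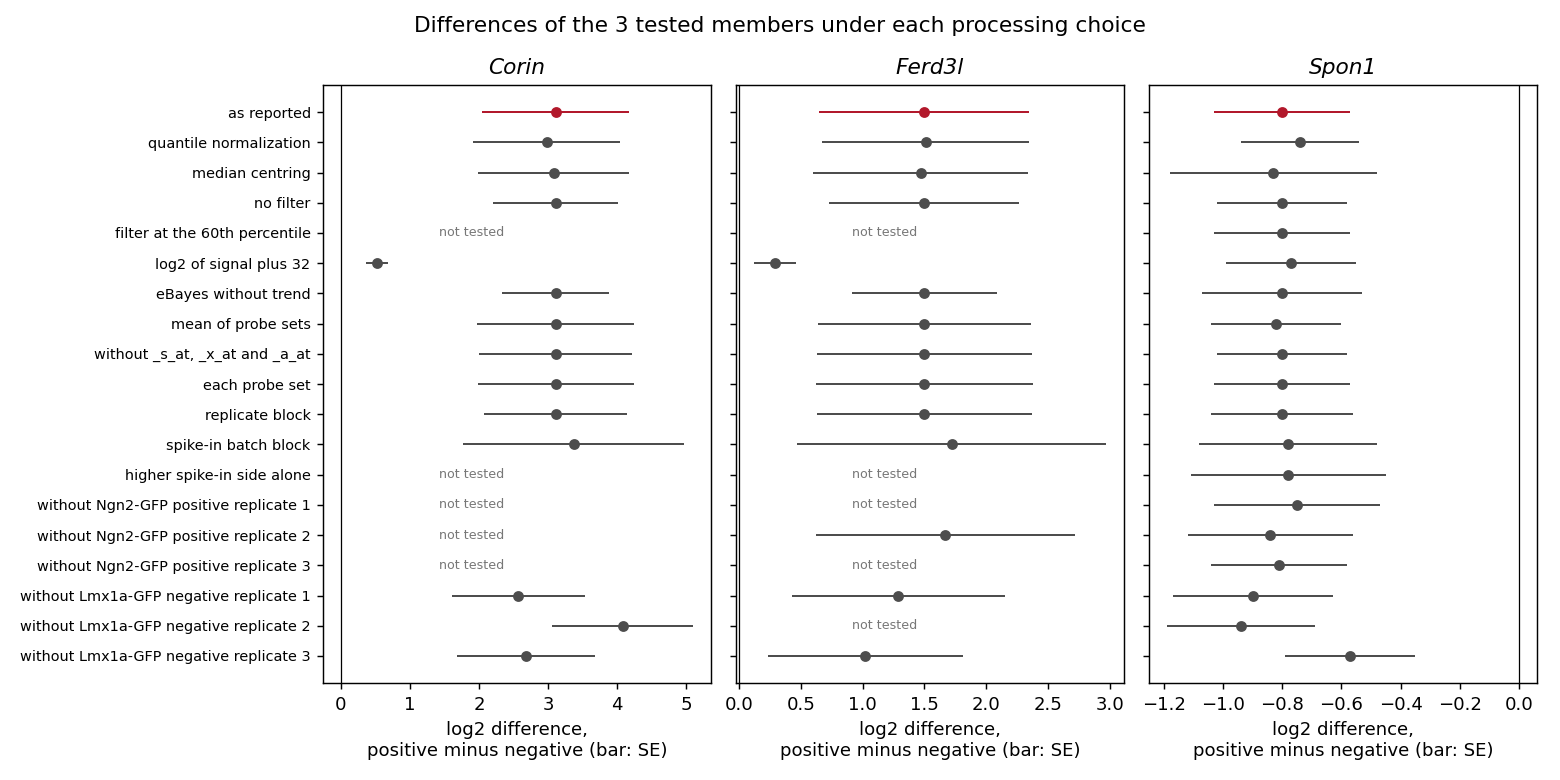
Log2 difference of the 3 tested members, positive minus negative, as reported (red) and under each processing choice (grey), with bars of 1 SE and a scale of its own for each panel. Spon1 stays below 0 in every row, and Corin and Ferd3l lie above 0 wherever they were tested, with smaller values of 0.52 and 0.29 on the scale of log2 signal plus 32.

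Counted together, 0 of the 3 tested members passed the limma test after adjustment, and 2 of the 3, Corin and Spon1, had an unadjusted p under 0.05. Over all 12047 tested genes, 1.06% passed, with 0.423% higher and 0.639% lower in positive cells, and 10.8% had an unadjusted p under 0.05. Of probe sets fitted singly, 0.647% passed and none of the 5 tested member probe sets did. The groups did not overlap for 2 of the 3 members, Corin and Spon1, against 15.5% of all tested genes. Corin entered the test through its positive arrays alone, and a filter passed in that way favours separated groups. Its place in these counts is therefore not support for a difference. With so few members tested, these shares say little about the set. An exact permutation test of 3 arrays against 3 cannot go below p = 0.1 and was not used.

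Several other genes listed for the ventral midline or dopaminergic progenitors were higher in positive cells. Of 20 listed genes of the ventral midline and dopaminergic progenitors, 18 were tested, 7 were higher and 1 was lower in positive cells. Over all tested genes, 0.423% were higher and 0.639% lower. The median log2 difference of the list was 1.05, against 0.025 for all tested genes. The list median was 0.98 when bounds replaced the fitted values of genes dim in 1 group. This list, like the others, was chosen with earlier results of these data known, so its counts are not independent support. The highest were Lmx1a, whose direction the gate set, and Rspo2, a Wnt agonist, with bounds of at least 9.65-fold and at least 5.69-fold. Both entered the test through the positive arrays alone. The adhesion molecule Alcam read 553, 611 and 695 in positive cells, against 151, 181 and 251 in negative cells (log2 difference 1.70, SE 0.23, adjusted p = 0.00303 by limma), and its groups did not overlap. Slit2, a secreted axon repellent of the midline, read 557, 534 and 516 in positive cells, against 137, 268 and 200 in negative cells (1.46, SE 0.25, adjusted p = 0.0111 by limma). En1, Ccnd2 and Foxa1 were the other higher genes. Otx2, the lower one, read 287, 243 and 249 in positive cells, against 509, 614 and 503 in negative cells (-1.06, SE 0.20, adjusted p = 0.021 by limma), and no gene was lower without any 1 array other than positive replicate 3, under median centring, without a filter, without a trend or without probe sets of the _s_at, _x_at and _a_at kinds.

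Shh, the defining signal of the floor plate, did not pass. It read 242, 261 and 232 in positive cells, against 229, 326 and 349 in negative cells, with a log2 difference of -0.28 (SE 0.22, adjusted p = 0.673 by limma). Its groups overlapped and all 6 arrays were above background. Wnt1, another midbrain progenitor signal, resembled Corin in being weak, at 18.8, 13.5 and 12.3 in positive cells, against 1.21, 1.18 and 2.52 in negative cells, where it was dim. Its bound was at least 1.13-fold (adjusted p = 0.277 by limma). Foxa2 (0.33, SE 0.21) and Ntn1 (0.51, SE 0.25) also did not pass, with adjusted p of 0.597 and 0.485 by limma. Blocking on the spike-in batch left 1 gene of this list higher and 0 lower, and on its higher side alone there were 0 and 0. Without positive replicate 2 there was 1 higher gene, and without each other array 4 to 6. Without a filter there were 0 and without a trend 3.

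**Figure D3:**
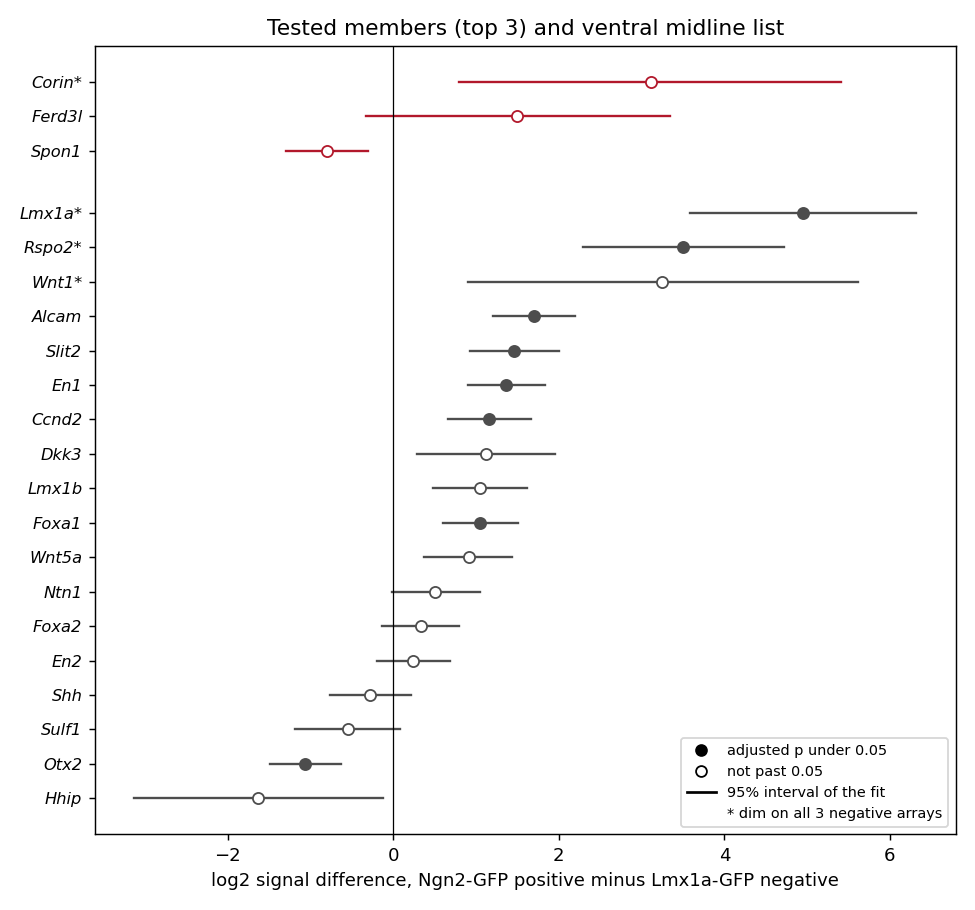
Log2 signal difference, positive minus negative, of the 3 tested members (red) and the 18 tested genes of the ventral midline list (grey), with 95% intervals of the limma fit. Filled points passed an adjusted p of 0.05, and for genes with an asterisk the fitted point exceeds the bound given in the text. Corin and Ferd3l have wide intervals, Spon1 lies left of 0, and 7 of the 18 list genes are filled to the right of 0.

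Relatives of the members by function gave few calls, and Rspo2 and Slit2 among them were already counted in the ventral midline list. Among secreted and guidance genes of the floor plate, the company of Spon1, 14 of 20 were tested, Rspo2 and Slit2 were higher and none was lower, with a median log2 difference of 0.40. In that list Thsd7a, which like Spon1 holds thrombospondin repeats, read 667, 640 and 708 in positive cells, against 1204, 2049 and 769 in negative cells, with a log2 difference of -0.88 (SE 0.30, adjusted p = 0.277 by limma), and was singled out after its values were seen. Of 15 bHLH genes and partners with a probe set, 11 were tested and none passed the limma test in either direction, with a median of 0.45. The 2 at an unadjusted p under 0.05 by limma were Tcf4 and Neurog2, the latter a gene behind the gates. The brightest were Tcf12, an E protein with which such factors pair (0.45, SE 0.23), and the Notch target Hes5 (-0.53, SE 0.25). Twist1, a relative of Ferd3l, was dim on all 6 arrays. In the list of Slc10 family and vesicular transporters, 5 of 11 genes with a probe set were tested. Slc18a2, the vesicular monoamine transporter (1.15, SE 0.24), and Slc17a6, a vesicular glutamate transporter (1.11, SE 0.24), were higher with adjusted p of 0.0377 and 0.0475 by limma, and the 2 tested Slc10 genes, Slc10a7 (-0.16, SE 0.31) and Slc10a3 (-0.03, SE 0.64), did not pass. Blocking on the spike-in batch, no gene of these 3 lists passed. Without positive replicate 3, and also under quantile normalization, 1 bHLH gene was higher. Without positive replicates 1, 2 or 3 the secreted list had 1, 0 or 1 higher genes and the transporter list 0, 0 or 1. The transporter list had 0, 1 and 0 without negative replicates 1, 2 and 3. It also had 0 under quantile normalization, median centring, no filter, no trend and each probe set fitted singly, and 1 with the replicate number as a block, so both calls rest on the processing chosen. The secreted list had 0 without a filter and 1 without a trend.

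Marker lists of other cell types were read in the same fit. Of 8 dopaminergic neuron markers, Pitx3 was dim on all arrays, and neither it nor Aldh1a1 was tested. Slc6a3 entered the test through the positive arrays alone. The 8 signals summed to between 3759 and 5323 in positive cells and between 1411 and 1795 in negative cells. Of 6 tested markers, 5 (Th, Slc6a3, Nr4a2, En1 and Slc18a2) were higher in positive cells. Their count was 1 when blocking on the spike-in batch, 2 without positive replicate 2, and 3 without positive replicate 1 or negative replicate 1 or 3, and it was 0 without a filter or without a trend. En1 is also counted in the ventral midline list and Slc18a2 in the transporter list, so these calls are not separate. Roof plate and dorsal midline markers, cells that also express Msx genes, had 0 of 6 tested members past the threshold in either direction, with 2 at an unadjusted p under 0.05 and sums of between 109 and 152 in positive cells and between 96 and 202 in negative cells. The brightest were Pax7 (0.47, SE 0.38) and Ttr (-0.15, SE 0.55). Endothelial and pericyte markers summed to between 79 and 103 in positive cells and between 52 and 98 in negative cells, and neither of the tested ones, Rgs5 (-0.03, SE 0.59) and Pdgfrb (-0.26, SE 0.56), passed. Pan-neuronal markers summed to between 10688 and 16707 in positive cells and between 14409 and 18288 in negative cells. None of 7 passed the limma test, with 1 at an unadjusted p under 0.05, and the brightest were Tubb3 and Dcx, at log2 differences of -0.30 (SE 0.27) and -0.45 (SE 0.28).

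The genes whose log2 signals ran most like each tested member over the 6 arrays are given as a description, over 6624 genes with a log2 range of at least 1. The points share arrays and group, and 60 to 72 genes had a Pearson r above 0.9 with each member. For Spon1 the nearest was Sparc, another matrix protein, with r = 0.995. Sparc read 325, 386 and 379 in positive cells, against 621, 630 and 1065 in negative cells. Vsnl1 (r = 0.990) and 4930412F09Rik (r = 0.986) followed. For Corin they were Rasgef1b, Ttc39b and E4f1 (r = 0.990, 0.987 and 0.985), and for Ferd3l they were Abca4, Pced1b and Zfp597 (r = 0.985, 0.978 and 0.970). Abca4 read 27.6, 21.9 and 24.5 in positive cells, against 3.18, 32.8 and 2.05 in negative cells, and like Ferd3l was above background on negative replicate 2 alone among the negative arrays. Ferd3l was there only at percentile 41.4. All negative-array signals of Corin, and those of Ferd3l on negative replicates 1 and 3, lay below background, where log2 signals are noisy.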

How the data were processed

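The deposited intensity values are 1 linear MAS5 signal per probe set and array, computed by the authors in R 2.14.2, and limma is also named, per the submitters' processing notes, which give no role for it. MAS5 combines perfect-match and mismatch probes. Every array has a 2% trimmed mean of 100, so total RNA content is not compared, and low signals are noisy on a log scale. The number of arrays limits precision.

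Gene names came from the platform annotation, with 34957 probe sets of 1 symbol, 920 of several and 9160 of none. Of these, the Entrez IDs of 34741 matched the GRCm38 gene table, which changed 0 symbols. The log2 of each signal was taken after a floor of 1. The comparison used limma 3.58.1 with R 4.3.3 (lmFit, eBayes with trend, two-sided, 4 residual degrees of freedom) and Benjamini-Hochberg adjustment over 12047 genes, or 23177 probe sets of 1 symbol. The fit was tested on simulated data. For a bound, each dim array was raised to its 40th percentile where its signal lay below that, and the mean of the brighter group was divided by the mean of the raised values. Named genes were all members, up to 4 passing genes of each list or else its 2 brightest, and the 3 genes most like each tested member. Other members of a list complete a count. The members and lists were chosen with earlier results of these data known. Alternatives covered normalization, filter, log offset, trend, choice of probe set, blocks and left-out arrays. Scan batches were not analysed here. Figures used matplotlib 3.10.9.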

Additional observations from a re-analysis of the deposited data

How the results depend on the processing

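No member passed the threshold under any of the 18 alternatives, whether taken by gene or, in the 17 that allow it, by probe set. Spon1 was tested in all 18 and stayed negative, between -0.94 and -0.57, with adjusted p of 0.0896 to 0.995 by limma. Corin and Ferd3l were tested in 13 each and stayed positive, at 0.52 to 4.08 and 0.29 to 1.72, with the lowest values from log2 of the signal plus 32. In the other 5 each had too few arrays above the filter level. Without 1 array, where tested, the log2 difference was 2.57 to 4.08 for Corin and 1.02 to 1.67 for Ferd3l. Corin could be tested only without a negative array, so its dependence on any single positive array was not tested. Ferd3l was tested without positive replicate 2 and without negative replicates 1 and 3. The number of genes that differed, 128, was 19 without a filter, 42 without a trend, 34 when blocking on the spike-in batch, 40 on the higher spike-in side alone and 57 to 417 without 1 array, the highest when positive replicate 3 is left out and the groups can no longer be told apart from the spike-in batches. The cause was not tested. With the replicate number as a block 127 genes passed, and Corin was at 3.11 (adjusted p = 0.267 by limma), Ferd3l at 1.50 and Spon1 at -0.80, none past the threshold. Same-numbered arrays deviated together at r = 0.14, -0.10 and 0.03, and 2 of 6 arrays correlated best with their own number, so the numbers were not taken to pair the samples. Of 540 list counts under alternatives, 463 stayed within 1.5 times and 77 did not. The 463 include counts of 0 that stayed 0, so they do not measure how stable the calls were. Of the 18 alternatives, 12 kept the count of higher ventral midline genes within 1.5 times. For higher dopaminergic markers it was 10, for lower radial glia markers 6 and for higher transporter genes 4. Beyond those given with the results, without a trend there were 1 GABAergic and 0 radial glia markers lower and 1 roof plate marker higher. Without probe sets of the _s_at, _x_at and _a_at kinds 1 erythroid and 2 macrophage markers were lower, and the radial glia count was 1 under median centring, with each probe set fitted and with the replicate number as a block. Without positive replicate 3, 1 BMP gene and 2 pan-neuronal markers were lower. Signals near the 40th percentile limit what can be said of Corin, Ferd3l, Msx1 and Msx2.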

Other observations

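Corin and Slc10a4 lie near each other on chromosome 5, with 13 annotated genes between them in the GRCm38 gene table, 7 of them protein-coding. Of these, 7 had a probe set, 3 were tested and none passed the limma test, with 0 at an unadjusted p under 0.05. The log2 differences were -0.28 (SE 0.23) for Nfxl1, -0.32 (SE 0.55) for Zar1 and -0.14 (SE 0.22) for Slain2. Atp10d, the neighbour of Corin on the other side, read 44, 44.8 and 41.6 in positive cells, against 29, 38.5 and 38.5 in negative cells, with a log2 difference of 0.31 (SE 0.36, adjusted p = 0.778 by limma). Twist1, which lies next to Ferd3l on chromosome 12, read 3.73, 0.863 and 1.48 in positive cells, against 10.8, 1.3 and 1.15 in negative cells, below background on all 6 arrays.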
